A study of Mus musculus with 6 samples.

Results

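The 10 genes described here make, break down or bind hyaluronan: the synthases Has1, Has2 and Has3, the precursor enzyme Ugdh, the degrading enzymes Hyal1 and Hyal2, the hyaluronan-binding protein Cemip, the secreted binder Tnfaip6, and the receptors Cd44 and Stab2. They were taken by symbol from a count table of 24348 genes, and all 10 were in the table and among the 19925 genes that passed the filter on low counts (at least 10 reads in at least 3 libraries). The group was chosen by its readout in this same contrast, since the difference in Has1 between immune complexes and vehicle was known when the list was drawn up. The members' fold changes and adjusted p-values are therefore given as a description of these libraries and not as independent support.

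Fibroblasts were sorted from the digested synovium, the soft tissue lining the joint, of adult wild-type C57BL/6 mice (C57BL/6J background in the study's methods), and their total RNA was sequenced in 6 libraries. In 3 of them the mice had received immune complexes (IC), which per the study's methods were ovalbumin bound by rabbit antibody and given into the tail vein, and in 3 the mice had received vehicle, the group labelled Control. All mice otherwise shared strain and genotype, and the gate used for the sort and the interval between injection and sacrifice were not given in the sources used here. The labels do not say whether each library came from 1 mouse, so the p-values measure only the spread between these libraries, which may be technical. Total counts ranged from 40114331 to 56714304 per library. The share of mitochondrial counts separated the groups, at 0.526%, 0.425% and 0.457% after IC and 0.760%, 0.568% and 0.564% after vehicle, and its part in the differences between IC and vehicle was not tested. Vehicle replicate 1 stood apart in having the largest such share and the largest share of Gm42418, a gene that overlaps ribosomal RNA (0.964%, against 0.375% to 0.553% in the other 5). Results that rest on this library are given with and without it. Vehicle replicate 2 stood apart on a surrogate variable, a hidden pattern estimated from the counts, at 0.908 against -0.262 to -0.129 in the other 5. Against the fibroblast label, Col1a1, the main collagen of fibroblasts, had a mean of 667675 normalized counts after IC and 724568 after vehicle. CPM are counts scaled to the same total in each library. The summed CPM of 8 fibroblast markers ranged from 43893 to 45602 after IC and from 45107 to 54806 after vehicle. Of these 8, 7 had log2 fold changes below 0. DESeq2 called 2 of them lower, beside 1.07% of all genes tested. The summed CPM of 7 macrophage markers stayed between 24.2 and 36.3 in all 6 libraries, with C1qb, C1qc and Cx3cr1 each at 0 in at least 1 library.

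Hyaluronan is a very long, unsulphated sugar chain of alternating glucuronic acid and N-acetylglucosamine. It is extruded through the plasma membrane by the hyaluronan synthases from the activated sugars UDP-glucuronic acid and UDP-N-acetylglucosamine, and in joints the synovial lining fibroblasts release it into the fluid, where it gives viscosity and lubrication. Chains are cut by hyaluronidases, held in the matrix by binding proteins such as versican and TSG-6 (the product of Tnfaip6), and taken up by receptors such as CD44 on many cells and STAB2 on sinusoidal and lymphatic endothelium.

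The stretches upstream of Has1, Tnfaip6 and Stab2 are shown because Has1 and Stab2 were the members called different between IC and vehicle and Tnfaip6 was the member with the highest level. They come from the RefSeq promoter table on GRCm38.p6, which held 8 of the 10 members and not Has2 or Has3, and each runs 5′ to 3′ on the gene's strand and leaves out bases that GENCODE M21 places in a transcript. Has1 lies at chr17:17855206-17855438 on the minus strand, Tnfaip6 at chr2:52037863-52038008 on the plus strand and Stab2 at chr10:87008026-87008192 on the minus strand. Capitals mark every match, on either strand, to the motifs searched.
Has1: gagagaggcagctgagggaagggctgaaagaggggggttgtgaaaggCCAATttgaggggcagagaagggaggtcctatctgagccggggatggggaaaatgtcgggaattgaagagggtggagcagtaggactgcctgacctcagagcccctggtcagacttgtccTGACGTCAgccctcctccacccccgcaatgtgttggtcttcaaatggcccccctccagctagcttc
Tnfaip6: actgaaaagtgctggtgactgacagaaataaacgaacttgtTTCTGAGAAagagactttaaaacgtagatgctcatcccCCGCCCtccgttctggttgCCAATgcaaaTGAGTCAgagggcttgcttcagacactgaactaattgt
Stab2: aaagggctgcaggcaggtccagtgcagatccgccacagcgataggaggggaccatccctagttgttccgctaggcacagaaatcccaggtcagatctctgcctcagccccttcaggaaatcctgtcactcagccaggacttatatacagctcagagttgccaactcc

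The motifs were searched over the 250 bases before each RefSeq start, and their positions count back from it. The Has1 stretch held a cyclic AMP response element (CRE, TGACGTCA) at positions -83 to -76, a sequence found in 1.55% of the 32851 mouse promoters in the table, and a CCAAT box (CCAAT) at -203 to -199, found in 33.9%. The Tnfaip6 stretch held a STAT motif (TTCNNNGAA) at -209 to -201, which 7.02% of promoters hold, an AP-1 motif (TGANTCA) at -142 to -136, which 6.75% hold, a GC box (GGGCGG, in 32.7%) and 2 CCAAT boxes, of which the second, at -81 to -77, falls in the bases left out above. None of the 8 motifs searched was in the windows of Stab2 or Cd44. Elsewhere among the members, Cemip held a TATA box (TATAAA, in 12.4% of promoters) at -29 to -24 and 2 GC boxes, Hyal2 held an NF-kB motif (in 3.90%) and a GC box, Ugdh held 2 GC boxes, Hyal1 held 2 overlapping GC boxes and a CCAAT box, and no member held the E-box (CACGTG, in 6.02%). All 250 bases of the Hyal2 window, with both matches, lie past the GENCODE start of that gene. The same holds for the Ugdh GC box at -72 to -67. A match describes the letters only, and no binding was measured here.

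Of the 10 genes, 2 had an adjusted p under 0.05 by DESeq2, Has1 (higher after IC) and Stab2 (lower), and the other 8 did not, with Has2 and Cd44 under 0.05 before adjustment only. By the same test 2.1% of all genes tested were called, 1.03% higher after IC and 1.07% lower. The edgeR quasi-likelihood test called 1 of the 10, Has1, against 0.186% of all genes. The 3 IC values lay wholly above the 3 vehicle values for Has1 and Has2 and wholly below for Stab2, and for the other 7 the groups overlapped, while over all genes tested 15.8% had groups that did not overlap. Since the contrast chose the genes, nothing is read from these shares. The median log2 fold change of the 10 was 0.16, beside -0.00187 for all genes tested, with 6 members above 0 and 4 below. Values below are normalized counts, which are read counts divided by DESeq2's size factor for the library. They are given with the log2 fold change of IC over vehicle, its SE (n = 3 per group) and the adjusted p. The adjustment ran over the 16055 tested genes left by DESeq2's independent filtering and outlier cutoff (all 19925 for edgeR).

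**Figure D1:**
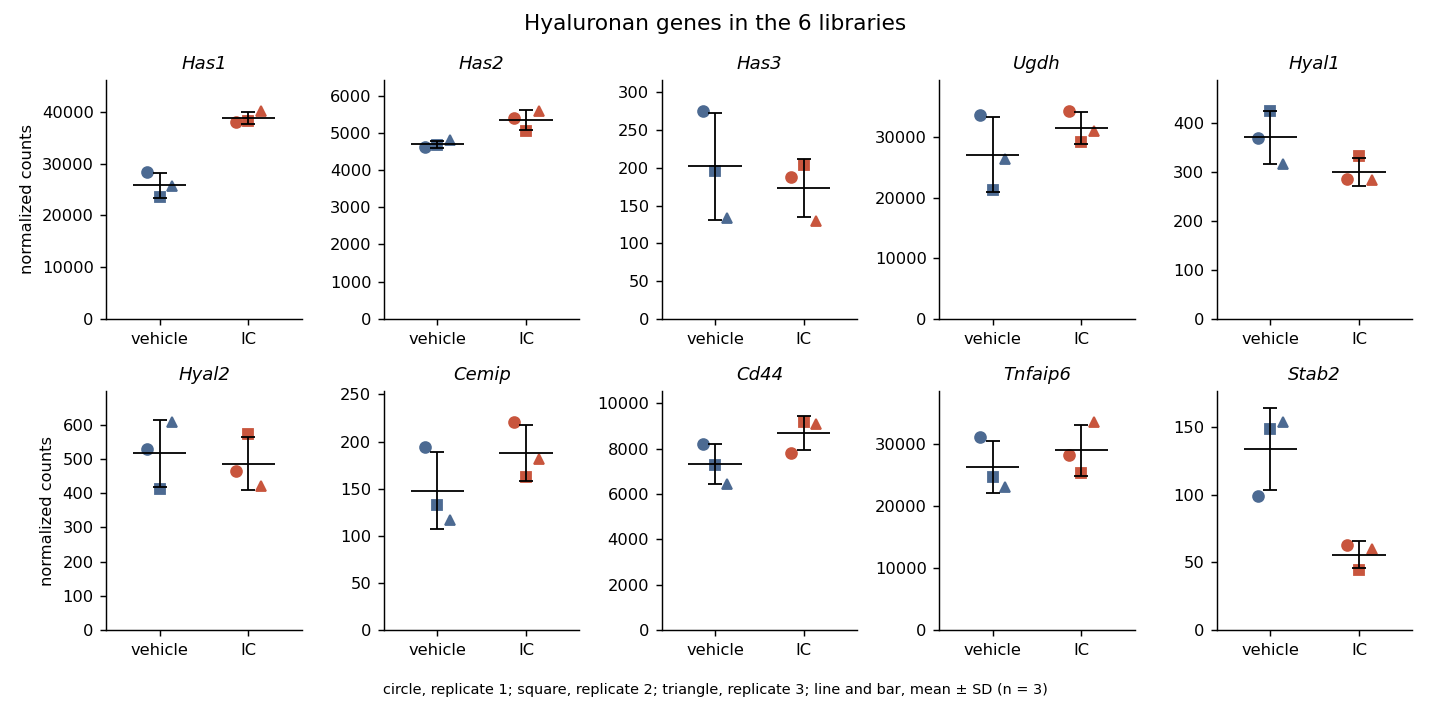
Normalized counts (y axes, each from 0) of the 10 genes in the 3 vehicle (blue) and 3 IC (red) libraries. Points are single libraries with the mean and SD (n = 3) of each group. Has1 and Has2 lie higher after IC with no overlap, Stab2 lies lower with no overlap, and the other 7 overlap.

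The synthase Has1 was the member called higher after IC. It had 38114, 38255 and 40155 normalized counts in the IC libraries and 28346, 23572 and 25575 in the vehicle libraries. The lowest IC library was above the highest vehicle library, vehicle replicate 1. The log2 fold change was 0.59 ± 0.08 (SE), which is 50.4% more counts (95% interval for the fold 1.35 to 1.68), with adjusted p = 6.93e-10 by DESeq2 and 0.0228 by edgeR. With each of the 6 libraries left out in turn the log2 fold change ran from 0.53 to 0.66, and all 6 fits called the gene. Has1 (chr17:17843323-17855205, minus strand, GRCm38) encodes a membrane enzyme that polymerises hyaluronan.

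Has2 and Has3 showed smaller or no separation. Has2, the synthase that embryonic heart development requires, had 5391, 5050 and 5588 normalized counts after IC and 4612, 4665 and 4800 after vehicle. Every IC library was thus above every vehicle library, but the difference of 0.19 ± 0.08 on the log2 scale was not called (adjusted p = 0.293 in DESeq2, 0.420 in edgeR). Has3 had 187, 204 and 130 normalized counts after IC and 276, 196 and 134 after vehicle, and these overlapped. Its log2 fold change of -0.22 ± 0.32 has a 95% interval from -0.85 to 0.41 and turned to 0.07 without vehicle replicate 1. Has2 lies at chr15:56665627-56694539 (minus strand) and shares 182 exon bases, 4.30% of its exons, with Has2os on the other strand, and Has3 (chr8:106870242-106884566, plus strand) shares 352 with Chtf8 on the other strand. Use of strand in counting is not given in the sources used here, so reads from the shared bases cannot be told apart. Has2os, the antisense RNA of Has2, had a mean of 556 normalized counts after IC and 589 after vehicle, a log2 fold change of -0.08 that was not called.

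Counted per kilobase of exon, Has1 carried most of the synthase transcript in every library. Its share of the summed level of the 3 synthases was 86.6%, 87.4% and 86.9% after IC and 84.7%, 82.2% and 83.1% after vehicle. The shares did not overlap, with means of 87.0% ± 0.374 (SD, n = 3) and 83.3% ± 1.29. Has2 made up 12.8% ± 0.403 after IC and 16.2% ± 1.37 after vehicle, and Has3 0.277% and 0.459%. The ratio of Has1 to Has2 counts was 7.07, 7.58 and 7.19 in the IC libraries and 6.15, 5.05 and 5.33 in the vehicle libraries, again with no overlap. The same held for Has1 over Ugdh (means 1.24 and 0.971), over Tnfaip6 (1.35 and 0.990) and over Cd44 (4.50 and 3.55). For Ugdh the groups were barely apart, with 1.109 in IC replicate 1 and 1.107 in vehicle replicate 2. These ratios rest on the Has1 values that chose the group and are given with no test.

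**Figure D2:**
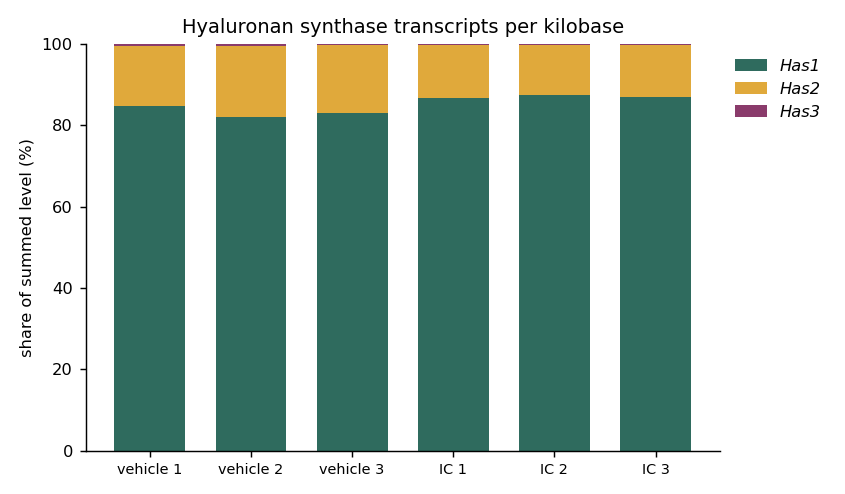
Share (%, y axis) of Has1, Has2 and Has3 in the summed normalized counts per kilobase of the 3 synthases, in each of the 6 libraries. Has1 takes 82.2% to 84.7% in the vehicle libraries and 86.6% to 87.4% in the IC libraries, and Has3 takes 0.199% to 0.583%.

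Ugdh, the dehydrogenase that makes UDP-glucuronic acid, had 34370, 29184 and 31111 normalized counts after IC and 33695, 21285 and 26509 after vehicle. The groups overlapped through vehicle replicate 1, which was above 2 of the 3 IC libraries. The log2 fold change was 0.22 ± 0.13 with adjusted p = 0.558. Without vehicle replicate 1 it was 0.40 with adjusted p = 0.00702, and with each other library left out it was not called (0.07 without vehicle replicate 2). Ugdh lies at chr5:65413221-65435949 (minus strand).

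The breakdown genes had low to middling counts, and none was called by DESeq2 or edgeR or had an unadjusted p under 0.05 in either. Hyal1, the lysosomal hyaluronidase, had 285, 333 and 282 normalized counts after IC and 370, 424 and 316 after vehicle, a log2 fold change of -0.30 ± 0.21 (adjusted p = 0.677) that was -0.19 without vehicle replicate 2. Hyal2, the membrane-anchored hyaluronidase, had 466, 572 and 422 against 528, 414 and 607, a log2 fold change of -0.08 ± 0.20 (adjusted p = 0.958). For Hyal2 the IC and vehicle libraries were mixed in order, and its sign turned without IC replicate 3 (0.01) and without vehicle replicate 3 (0.05). Cemip, which binds hyaluronan and promotes its depolymerisation, had 220, 162 and 182 after IC and 194, 133 and 117 after vehicle, a log2 fold change of 0.34 ± 0.30 (adjusted p = 0.803), which moved to 0.59, 0.21 and 0.20 when vehicle 1, IC 1 and vehicle 3 were left out in turn. Hyal1 (chr9:107576927-107581710) and Hyal2 (chr9:107567945-107572779) stand 4147 bases apart on the plus strand, and Cemip lies at chr7:83932857-84086502 on the minus strand. Hyal1 shares 1920 bases, 50.8% of its exons, with Naa80 on the same strand and 4.21% with Hyal3, so its counts are uncertain.

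Tnfaip6 encodes TSG-6, a secreted protein that binds hyaluronan and transfers the heavy chains of inter-alpha-inhibitor onto it. It had 28203, 25356 and 33548 normalized counts after IC and 31145, 24677 and 23157 after vehicle, with both groups spanning much of the same range. On the log2 scale the difference was 0.14 ± 0.12 (95% interval -0.09 to 0.37, adjusted p = 0.762). It was 0.02 without IC replicate 3, 0.06 without vehicle replicate 3, and 0.28 (adjusted p = 0.138) without vehicle replicate 1. Tnfaip6 lies at chr2:52038009-52056686 (plus strand).

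Cd44, the main cell-surface receptor for hyaluronan, had 7804, 9151 and 9070 normalized counts after IC and 8196, 7270 and 6460 after vehicle. The groups overlapped only in that vehicle replicate 1 lay above IC replicate 1. Its log2 fold change was 0.25 ± 0.10 with adjusted p = 0.242, and without vehicle replicate 1 it was 0.34 with adjusted p = 0.0230, the 1 fit of 6 with a library left out that called it. Cd44 lies at chr2:102811141-102901665 (minus strand), and isoforms that differ in their variable exons cannot be told apart in counts per gene.

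Stab2, the endocytic receptor that clears hyaluronan in lymphatic and sinusoidal endothelium, was the member called lower. It had 62.8, 44.4 and 60.0 normalized counts after IC and 99.2, 148 and 153 after vehicle, from 43 to 157 reads per library. All 3 IC libraries were below all 3 vehicle libraries. The log2 fold change was -1.26 ± 0.38 (95% interval -2.00 to -0.51) with adjusted p = 0.0405 by DESeq2 (0.0489 without independent filtering), and 0.176 by edgeR. Of the 6 fits that leave out 1 library, only the one without vehicle replicate 1 called it (-1.44, adjusted p = 0.0110), and the values without IC replicate 1, IC replicate 2, IC replicate 3, vehicle replicate 2 and vehicle replicate 3 were -1.35, -1.12, -1.31, -1.17 and -1.15. Stab2 lies at chr10:86841198-87008025 (minus strand) and shares 141 exon bases, 1.61% of its exons, with Gm16268 on the other strand.

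**Figure D3:**
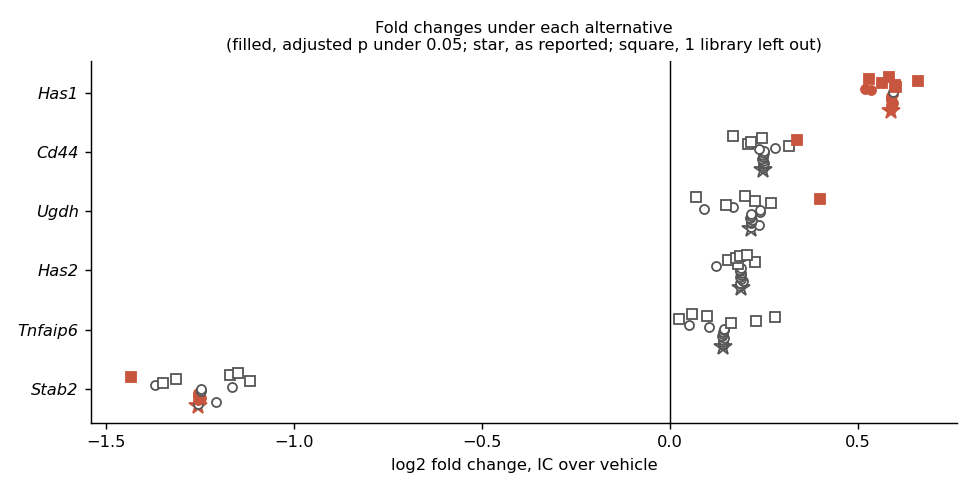
Log2 fold change of IC over vehicle (x axis) for 6 members as reported (star), under 12 alternatives with all libraries (circles) and with 1 library left out (squares). Filled marks have an adjusted p under 0.05. Has1 stays between 0.52 and 0.66, Stab2 is filled in 5 of the 11 alternatives with all libraries that kept it and in 1 of the 6 fits with a library left out, and Cd44 and Ugdh are filled in 1 fit each, the one without vehicle replicate 1.

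Endothelial markers were lower on average after IC, with ranges that overlapped. IC replicate 2 had the lowest Stab2 value (44.4) and an endothelial sum of 260 CPM, beside 254 in IC replicate 1 and 198 in IC replicate 3. Vehicle replicate 1 had the lowest Stab2 value of the vehicle libraries (99.2) and the highest endothelial sum (308 CPM). With 3 libraries per group and 43 to 157 Stab2 reads per library, nothing is read from these orders. The summed CPM of 9 endothelial markers ranged from 198 to 260 after IC and from 254 to 308 after vehicle. Of the 9, 8 had log2 fold changes below 0 and 1 above, and 2 were called lower. The summed CPM of 4 lymphatic endothelial markers ranged from 157 to 300 after IC and from 296 to 343 after vehicle. All 4 had log2 fold changes below 0, and 1 was called lower. Over all genes tested, 10044 of 19925 had log2 fold changes below 0 and 1.07% were called lower. The log2 fold change of Cdh5, the cadherin of endothelial junctions, was -0.74 (adjusted p = 0.0496), and Prox1, the transcription factor of lymphatic endothelium, had -0.70 (adjusted p = 0.328). Of the other receptors in the wider pathway described below, Stab1 and Lyve1 had -0.26 and -0.25 and were not called. Lyve1 is not particular to endothelium, since the study also used LYVE1 to define a subset of synovial macrophages. The part of these cells in the Stab2 result was not tested, and in bulk RNA fewer cells of a type and less RNA per cell cannot be told apart. Summed markers of mural cells ranged from 496 to 607 CPM after IC and from 608 to 662 after vehicle. Those of skeletal muscle ranged from 16.9 to 44.4 and from 40.9 to 102, with the highest in vehicle replicate 2. Among these, 1 of 8 mural markers and 1 of 10 muscle markers tested were called lower.

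Beside Has1, the summed markers of lining fibroblasts ranged from 769 to 888 CPM after IC and from 570 to 709 after vehicle. Most of that difference lay in Prg4, which encodes lubricin, the lubricating glycoprotein of the lining, since the other 6 lining markers summed to between 393 and 415 after IC and between 384 and 428 after vehicle. Of those 6, none was called higher and 2 were called lower, beside 1.03% and 1.07% of all genes tested. Sublining markers ranged from 4460 to 5028 after IC and from 4977 to 5713 after vehicle, with 1 of 7 called lower. The part of the mix of fibroblasts in the Has1 result was not tested.

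Set against one another per kilobase of exon, the 10 genes spanned a wide range of levels. Tnfaip6 was highest, at a mean of 16188 normalized counts per kilobase over the 6 libraries, above 99.7% of the 19602 tested genes with a length. Has1 came next at 7157 (above 99.1%) and Ugdh at 4348 (98.4%). Has2 (1184) and Cd44 (1179) followed, above 92.9% of genes each, and their ranges over libraries overlapped, so that their order is not resolved. Hyal2 (152) was near the middle of all genes, at 52.4%, and Hyal1 (88.7), Has3 (29.4), Cemip (13.7) and Stab2 (10.8) were lower. Cemip and Stab2 overlapped, while every other pair of neighbours in the order had ranges that did not meet. The place of Hyal1 beside Hyal2 is uncertain all the same, since Hyal1 shares 50.8% of its exons with Naa80 on the same strand.

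**Figure D4:**
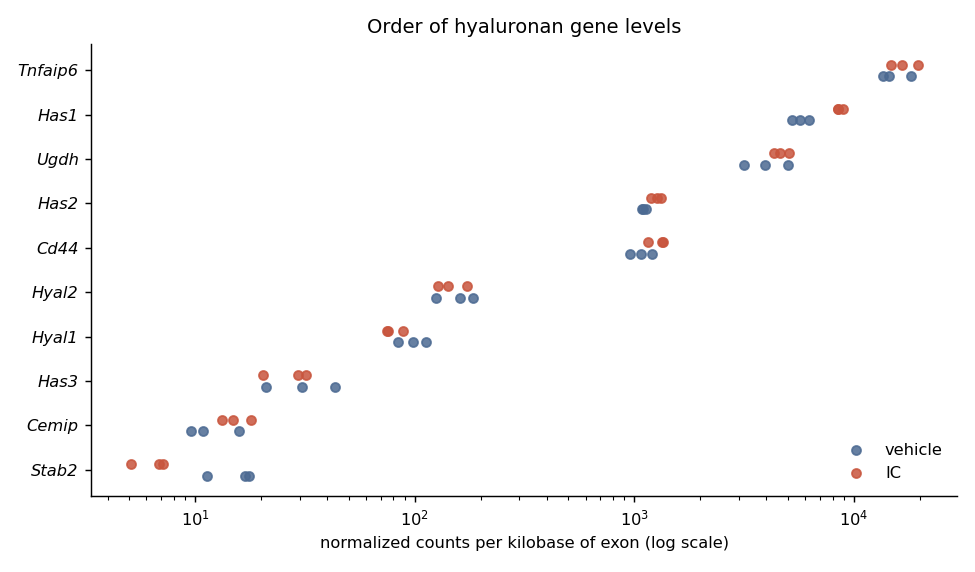
Normalized counts per kilobase of exon (x axis, log scale) of the 10 genes in the vehicle (blue) and IC (red) libraries, 1 point per library, in order of the mean. Tnfaip6 (mean 16188), Has1 (7157) and Ugdh (4348) lie far above Has3 (29.4), Cemip (13.7) and Stab2 (10.8).

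Over the 6 libraries, the genes with a pattern most like that of Has1 were sought among 13434 other genes with a mean of at least 100 normalized counts, by the root mean square difference between log2 values after centring each gene. The 5 nearest were Vipr2, a receptor for vasoactive intestinal peptide, at 0.07, Nup62cl at 0.08, Cyp4b1, a cytochrome P450, at 0.08, Ptp4a1, a protein tyrosine phosphatase, at 0.08, and Gm48562 at 0.09, where the median candidate was at 0.34. Of the members compared, the nearest was Cd44, at 0.20 and rank 523, followed by Has2 (0.22, rank 874), Ugdh (0.22, rank 920), Cemip (0.24, rank 1431) and Tnfaip6 (0.26, rank 1937). Hyal1, Hyal2 and Has3 lay above the median candidate, and Stab2 was not compared because its mean was under 100. The 5 nearest genes had log2 fold changes of 0.47 to 0.69. Of them, Nup62cl (adjusted p = 0.343) and Gm48562 (0.595) were not called by DESeq2. The likeness rests on the Has1 values that chose the group and is given with no test.

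The wider pathway was described with 52 further genes, of which 45 were in the table and 43 were tested. DESeq2 called 7 of the 43, 4 higher after IC and 3 lower, and their median log2 fold change was -0.03, beside 2.1% of all genes tested called (1.03% higher, 1.07% lower) and a median of -0.00187. The edgeR test called 1 of them, Itih5, beside 0.186% of all genes. The list was drawn up with earlier results of these data known, so the counts are a description.

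Among the 11 genes that make the sugar precursors, Uap1 was called higher. It encodes the pyrophosphorylase that completes UDP-N-acetylglucosamine and had 21329, 21177 and 21481 normalized counts after IC and 18771, 14142 and 15568 after vehicle, with no overlap. Its log2 fold change was 0.40 ± 0.10 (adjusted p = 0.00343 by DESeq2, 0.156 by edgeR), and the call was lost without vehicle replicate 2 (0.31) or vehicle replicate 3 (0.37). Gfpt2, an enzyme of the first step of the same branch and the most abundant of the 11, had means of 54993 and 45610 normalized counts after IC and vehicle. Its log2 fold change of 0.27 ± 0.09 was not called (adjusted p = 0.109), and was 0.38 with adjusted p = 0.000259 without vehicle replicate 1. Of the 11 log2 fold changes, 8 were above 0, between -0.15 and 0.40 in all.

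Of 5 further breakdown enzymes in the table, Hexa was called lower and none higher. Hexa encodes a subunit of the lysosomal hexosaminidase that removes N-acetylglucosamine from fragments, and had 3541, 3107 and 3222 normalized counts after IC and 3745, 4369 and 4385 after vehicle. Its log2 fold change was -0.34 ± 0.10 (adjusted p = 0.0313 by DESeq2, 0.172 by edgeR), and it missed the threshold when IC 2 (-0.30), IC 3 (-0.33), vehicle 2 (-0.30) or vehicle 3 (-0.30) was left out. None of 6 further receptors was called by DESeq2 or edgeR, or had an unadjusted p under 0.05 in either, and Layn (0.19, adjusted p = 0.776) and Tlr4 (-2.94e-05, not called) were the most abundant of them per kilobase.

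Among 6 partners and cutters of CD44, Adam10, a membrane protease that sheds it, was called lower. Its log2 fold change was -0.29 ± 0.08 (means 3644 and 4459, adjusted p = 0.0266 by DESeq2, 0.147 by edgeR), and it missed the threshold when IC 1 (-0.29), IC 2 (-0.26) or vehicle 3 (-0.27) was left out. Msn, which encodes moesin, the link between CD44 and actin, had 0.20 ± 0.08 (adjusted p = 0.156) and was called without vehicle replicate 2 (0.25, adjusted p = 0.0485). Mmp14, a membrane metalloprotease, had -0.05 ± 0.08.

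Of 10 matrix binders tested, 3 were called higher and none lower, beside 1.03% and 1.07% of all genes tested. Of the 10 log2 fold changes, 4 were above 0 and 6 below, with a median of -0.09. Among the 10, 1 had no adjusted p and so could not be called. Prg4 had 17352, 22054 and 22899 normalized counts after IC and 8263, 13855 and 10408 after vehicle, a log2 fold change of 0.94 ± 0.25 (adjusted p = 0.0103 by DESeq2, 0.0541 by edgeR). Acan, the large proteoglycan of cartilage that binds hyaluronan, had 228, 398 and 229 after IC and 78.7, 123 and 137 after vehicle, a log2 fold change of 1.34 ± 0.32 (adjusted p = 0.00290 by DESeq2, 0.108 by edgeR). Vcan, the proteoglycan versican of soft matrix, had means of 17821 and 14158 and a log2 fold change of 0.33 ± 0.09 (adjusted p = 0.0220 by DESeq2, 0.214 by edgeR). In all 3 the groups did not overlap. Leaving out 1 library ended the Prg4 call for IC 2 (0.89), IC 3 (0.86) and vehicle 3 (0.91). It ended the Acan call for IC 2 (1.02), and the Vcan call for IC 1 (0.35), IC 3 (0.24), vehicle 1 (0.31) and vehicle 3 (0.29). Summed chondrocyte markers overlapped between the groups (147 to 173 CPM after IC, 136 to 167 after vehicle). Ptx3, a pentraxin that cross-links hyaluronan with TSG-6, was at 0.39 ± 0.32 on that scale and not called (adjusted p = 0.760), with 0.14 without IC 3 and 0.57 without vehicle 2.

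Itih5, a member of the inter-alpha-inhibitor heavy chain family, was called lower. It had 19174, 17006 and 17676 normalized counts after IC and 23629, 29493 and 27824 after vehicle, with no overlap. The log2 fold change was -0.59 ± 0.09 (adjusted p = 1.02e-07 by DESeq2, 0.0338 by edgeR), and all 6 fits with a library left out called it. The call was lost in edgeR with the replicate number as a block (adjusted p = 0.121) and in DESeq2 with a skeletal muscle score in the model (0.0942). Itih2, which encodes a heavy chain that TSG-6 transfers to hyaluronan, had -0.21 ± 0.17 (adjusted p = 0.756), with -0.04 without vehicle 2 and -0.35 without vehicle 1.

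**Figure D5:**
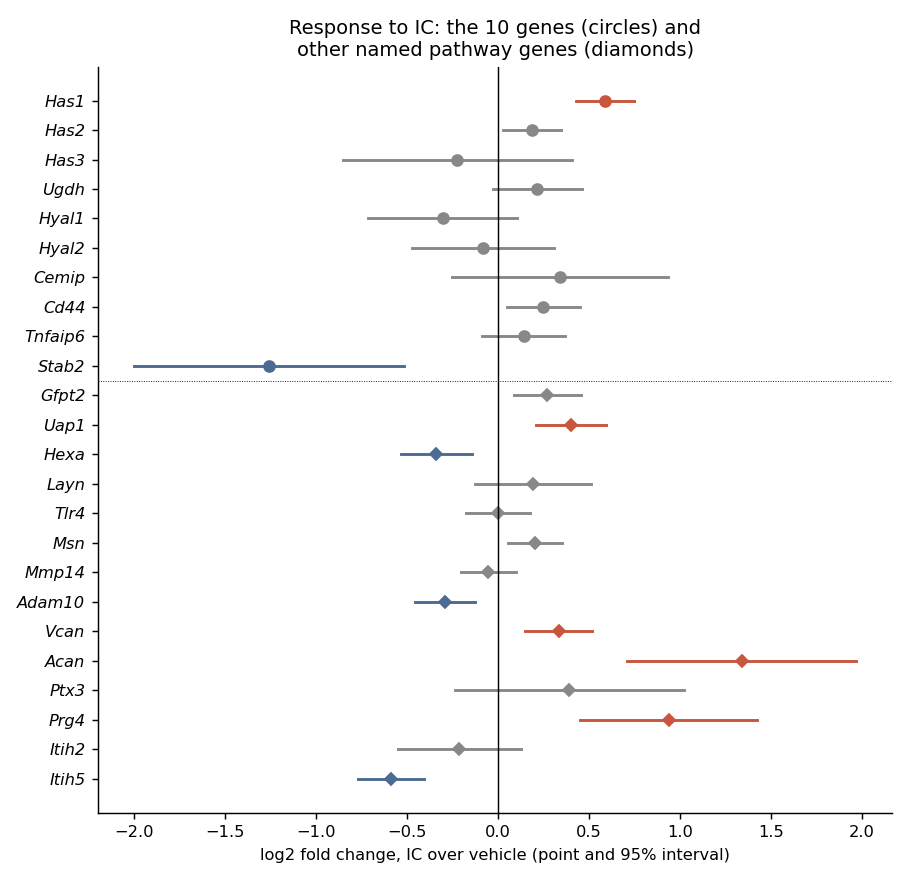
Log2 fold change of IC over vehicle (x axis, point with its 95% interval) for the 10 genes (circles) and the other named pathway genes (diamonds). Red marks genes called higher after IC and blue those called lower at an adjusted p under 0.05 by DESeq2, and grey the rest. Has1 (0.59), Prg4 (0.94) and Acan (1.34) lie right of 0 and Stab2 (-1.26) and Itih5 (-0.59) left of it.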

How the data were processed

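Total RNA of sorted synovial fibroblasts was sequenced in 3 IC and 3 vehicle libraries, and groups came from the labels. Per the submitters' processing notes, the authors used Trim Galore, FastQC, HISAT2 and featureCounts with mm10, and they deposited unnormalized counts for each gene. Their versions, the annotation and the strand setting are not given in the sources used here. The labels name a ribosomal-depletion kit of Illumina and the study's methods another stranded kit, and the methods mention batch removal with sva without saying how.

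Genes with at least 10 reads in at least 3 libraries were tested with DESeq2 1.42.0 (Wald test, group as the only term) in R 4.3.3, with a call at a Benjamini-Hochberg adjusted p under 0.05. Of the 19925 genes tested, independent filtering and the outlier cutoff (Cook's) left 3870 with no adjusted p, none of them members, so the adjustment ran over 16055. The edgeR 4.0.16 quasi-likelihood test, limma 3.58.1 (voom) and sva 3.50.0 gave alternatives, as did other scalings and filters, a replicate block, a skeletal muscle score and each library left out. The 95% intervals are normal intervals from the SE. Levels per kilobase used the union of GENCODE M21 exons (GRCm38), found for 98.0% of symbols. The fits were tested on simulated data with known changes, where the share of false calls was above the 0.05 threshold in DESeq2 and, by less, in edgeR.

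The members and the pathway and marker lists were chosen with earlier results of these data known. The text names the 10 members, each pathway gene that was called, the most abundant genes of each pathway list and the 5 genes nearest to Has1. A gene that this rule would name is not reported here. Stab1, Lyve1, Cdh5, Prox1 and Col1a1 were named as markers, and Has2os as the antisense partner of Has2.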

Additional observations from a re-analysis of the deposited data

How the results depend on the processing

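With a replicate block, 1 member (Has1) and 4 other pathway genes were called, and in edgeR with the replicate block 0 members (4 at an unadjusted p under 0.05), 1 pathway gene (Prg4, with Itih5 lost) and 22 of all genes, with Has1 at 0.59 (adjusted p = 0.0830). Same-numbered libraries did not deviate together (correlations -0.09, -0.16 and 0.02), so the numbers were not taken to pair the samples. Called genes over the table, 419 as reported, came to 37 in edgeR, 62 in limma-voom and 44 with a muscle score in the model. Members called, 2 as reported, came to 1 in edgeR, in limma-voom, at a mean of at least 100 (which removed Stab2), with 1 surrogate variable and with the muscle score. Other pathway genes called, 7 as reported, came to 1, 2 and 0 in edgeR, limma-voom and DESeq2 with the muscle score (10 at an unadjusted p under 0.05). Leaving out 1 library gave 281 to 677 of all genes, 1 to 4 members and 2 to 9 pathway genes, the highest of each without vehicle replicate 1.

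Stab2 was not called in edgeR (-1.26), in limma-voom (-1.21), with the replicate block (-1.25, in edgeR -1.25), with 1 surrogate variable (-1.17) or with the muscle score (-1.37), and ran from -1.44 to -1.12 with a library left out. On the same terms Cd44 ran from 0.17 to 0.34, Ugdh from 0.0693 to 0.400, Has3 from -0.445 to 0.0665 and Hyal2 from -0.220 to 0.0465. With the muscle score Has3 turned to 0.40 and Layn to -0.11. Tlr4, at 0 as reported, was 0.0043 in limma-voom, 0.0079 with total-count scaling, 0.00067 without a filter, 0.0018 with the replicate block (in edgeR 0.0013), 0.033 with 1 surrogate variable and -0.0595 to 0.0366 with a library left out. With the longest transcript as length the mean Has1 share after IC was 89.5%, and Has2 and Cd44 changed places. Causes were not tested. Of the members' alternative log2 fold changes, 161 kept direction and call, 12 lost the call, 2 gained it and 4 turned. No scaling moved the median of all genes by more than 0.1. Low counts limit Stab2, Has3 and Cemip most.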
